A study of Mus musculus with 8 samples.

Results

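The comparison described here is that of IEC10 cells stimulated with interferon beta (IFN-β) against untreated IEC10 cells. It rests on 5 of the 8 arrays analysed, chosen by their labels: 3 arrays of cells given 500 U/mL IFN-β for 9 h (replicates 1, 2 and 3) and 2 arrays of cells left in medium (control, replicates 2 and 3). The other 3 arrays hold cells given 20 ng/mL IFN-λ2 for 9 h and show where the response to IFN-β differed; they also enter the estimate of the spread between replicates. IEC10 is a single immortalized murine intestinal epithelial cell line, derived from a transgenic mouse that carries firefly luciferase under the Mx2 promoter, so all groups share that genotype and the replicates are samples of 1 line. All cells were grown on transwell inserts for 21 days before stimulation. Nothing in the labels states whether the replicates of a group were separate cultures, and the p-values therefore measure only the spread between these arrays.

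IFN-β is a type I interferon. It binds the receptor chains IFNAR1 and IFNAR2, which carry the kinases TYK2 and JAK1, and these phosphorylate STAT proteins. Together with IRF9 the phosphorylated STAT proteins form the factor ISGF3, which binds a short element in the promoters of interferon-stimulated genes. Many of the induced proteins block viral replication, sense foreign nucleic acids, display antigen to T cells or shut the signal down again. Intestinal epithelium also carries the receptor for type III interferons such as IFN-λ2, which uses other receptor chains and the same STAT proteins.

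Each array gives 1 intensity per probe, in arbitrary units after the authors had scaled the arrays and set every value under 15 to 15 units. Values are listed below in the order control replicates 2 and 3, then IFN-β replicates 1, 2 and 3. A probe was counted as higher or lower if limma gave an adjusted p under 0.05 and the groups differed at least 2-fold, the fold being the ratio of geometric means. Of 39429 probes on the array, apart from controls, 15016 to 15463 stood at 15 units, and none was saturated. The median absolute log2 difference between replicate arrays was 0.0939 to 0.161. Each slide carried 1 replicate number, and the arrays of a group had the same position on every slide, so position and treatment cannot be told apart.

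The epithelial label was checked on defining markers. Epcam, a surface protein of epithelia, measured 6544 and 5515 units on the control arrays and 5155, 7059 and 7399 units on the IFN-β arrays. Krt18, a keratin of simple epithelia, measured 190042 and 183559 units on the control arrays and 188119, 217985 and 205750.0 units on the IFN-β arrays, and the adhesion protein Cdh1 4444 and 4043 units on the control arrays and 4424, 5167 and 5222 units on the IFN-β arrays. Markers of the intestinal lineage were divided. Krt20, a keratin of the intestinal lining, measured 74249 and 89402 units on the control arrays and 100307, 93774 and 92148 units on the IFN-β arrays, whereas Vil1, a brush border protein, measured 56.96 and 60.1 units on the control arrays and 51.8, 42.8 and 36.9 units on the IFN-β arrays, Cdx1 stood at 112 and 15 units in control and at 19.8, 20.99 and 15.2 units in stimulated cells, and Cdx2 did not pass the filter on dim probes. Of 12 immune cell markers 8 were tested, and the leukocyte antigen Ptprc and the macrophage marker Adgre1 were at 15 units on both control arrays, whereas the myeloid genes Itgam (7649 and 5388 units on the control arrays) and Csf1r (5243 and 4223 units) were bright. The summed level of the immune list was 10335 to 13625 units on the control arrays and 9007 to 15375 units on the IFN-β arrays. The mesenchymal genes Vim (10894 and 13858 units on the control arrays) and Fn1 (29097 and 24389.5 units) were also bright, while the fibroblast gene Col1a1 stood at 26.6 and 20.8 units. No marker of the immune, mesenchymal and endothelial lists, 23 tested in all, passed the test between the groups, but Ptprc was called without IFN-β replicate 2 (log2 change 1.28).

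IFN-β raised a small part of the transcriptome. Of 25614 probes tested, standing for 20508 gene names, 232 probes with 196 gene names were higher after IFN-β, which is 0.906% of the probes, and 7 were lower, or 0.0273%. As the arrays hold the RNA of whole cultures, more responding cells and more RNA per cell cannot be told apart. The median change of the 232 was 4.53-fold and the largest 37.3-fold. A rise of at least 4-fold was measured for 130 probes, of at least 8-fold for 60 and of at least 16-fold for 10. The median log2 change of all probes tested was 0.01, with 5% of them below -0.35 and 5% above 0.46.

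All 232 higher probes had every IFN-β array above both control arrays, a pattern shown by 14.6% of all probes tested. The rises started from control signals near background as well as from bright ones. The mean control signal was below 100 units for 99 of the higher probes and at least 1000 units for 63. The median level of the 232 was 197 units in control and 1016 units in stimulated cells. Within slides 2 and 3, which held both groups, 214 of the 232 were at least 2-fold higher with IFN-β on both. For 22 of them no control array was marked well above background by the scanner software, so that only a bound can be given for their fold. A second probe of Zbp1 had the largest such bound, at least 17.3-fold higher (21.9 and 15.3 units in control and 341, 305 and 307 units in stimulated cells).

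**Figure D1:**
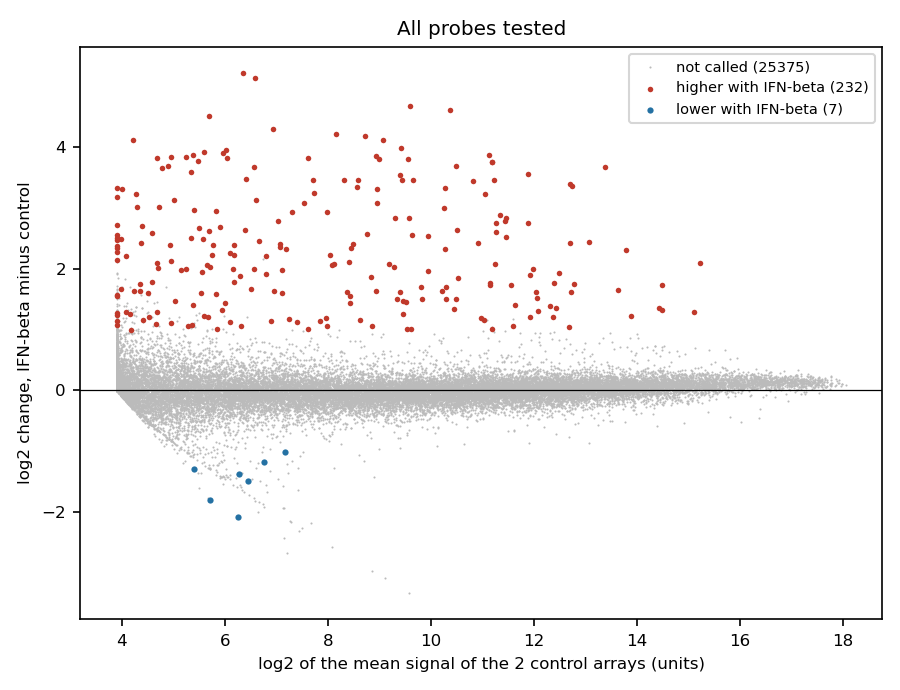
Change of each of the 25614 probes tested (y axis, log2 IFN-β minus control) against its level in untreated cells (x axis, log2 of the mean signal of the 2 control arrays); each point is a probe. The 232 higher probes run from the lowest control signals to bright ones, and the 7 lower probes all lie at low control signals.

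The largest rises were those of Oas2, Zbp1 and Gbp3. Oas2, an antiviral enzyme that makes 2′-5′-linked oligoadenylates, measured 95.6 and 67.6 units on the control arrays and 3005, 2995 and 2987 units on the IFN-β arrays. The IFN-β arrays lay close together and far above the control arrays, a rise of 37.3-fold (log2 change 5.22 ± 0.14 SE, adjusted p = 4.51e-06). Zbp1, a sensor of left-handed nucleic acids, measured 113 and 80.4 units on the control arrays and 3042, 3297 and 3792 units on the IFN-β arrays and rose 35.3-fold (log2 change 5.14 ± 0.16 SE, adjusted p = 5.42e-06). Gbp3, a guanylate-binding protein, rose 25.5-fold from 848 and 689.6 units to 20326, 18695 and 19492 units (log2 change 4.67 ± 0.10 SE, adjusted p = 3.24e-06). The other genes among the 20 largest rises were Oasl2, Oas3, Dhx58, Mx2, Gm9706, Ifi44, Isg15, Trim30a, Mx1, Ifi203, Gm4951, Apol9b, Irf7, LOC631406, Mpeg1, Gbp6 and Ifit3b, with rises between 14.2-fold and 24.4-fold. In none of the 20 did the groups overlap, as the rule for naming them requires. The probes of Ifi203 disagreed: another was at least 9.09-fold higher, whereas a further one was not called (adjusted p = 0.447). The latter measured 15 and 26.8 units on the control arrays and 30.7, 33.7 and 130 units on the IFN-β arrays.

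**Figure D2:**
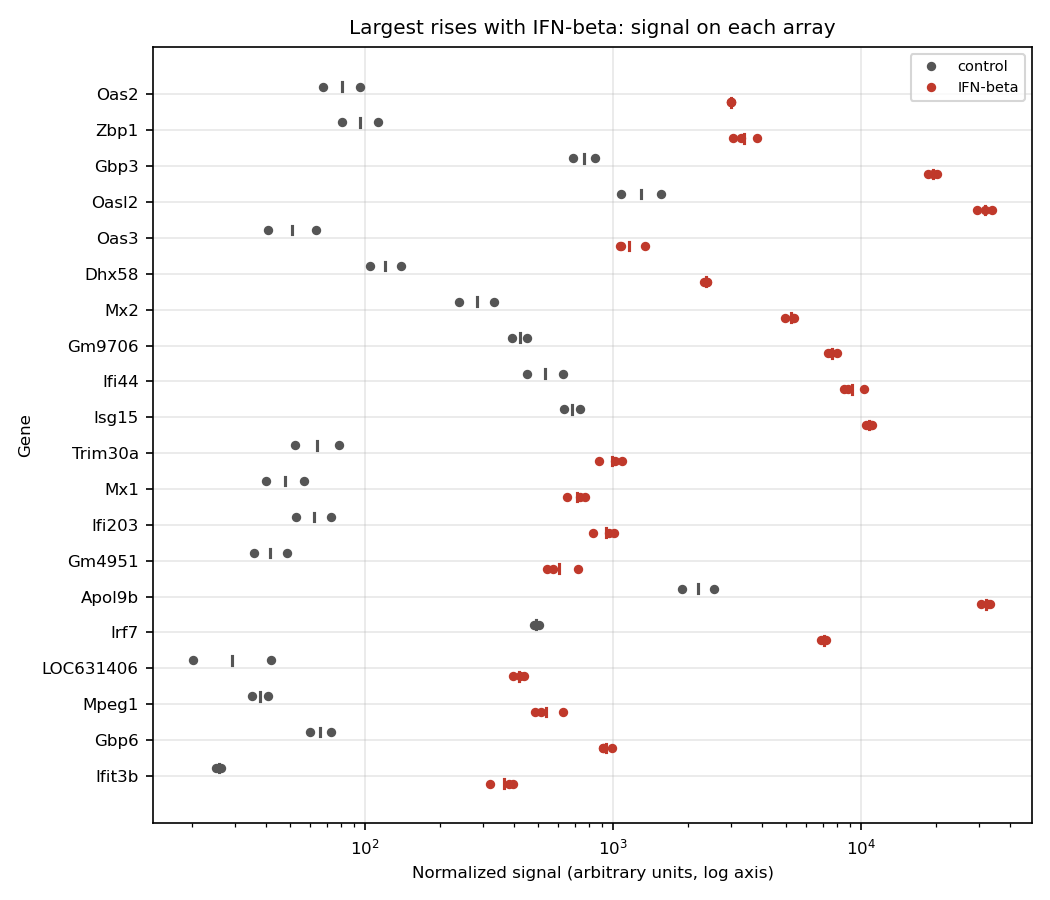
Normalized signal (x axis, arbitrary units, log axis) of the 20 genes with the largest rises whose arrays were all well above background, for the 2 control and 3 IFN-β arrays; each point is an array and each tick the geometric mean of a group. In every row the control arrays lie far to the left of the IFN-β arrays, which cluster closely.

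Promoter windows of these genes were searched for the core of the interferon-stimulated response element, that is GAAA, any 2 bases and GAAA again, on either strand, in 250 bases before to 50 bases after the start given by RefSeq on GRCm38.p6. A window was at hand for 11 of the 20 genes, and 7 of these held the letters. The stretches around them are shown because they are the sequence that ISGF3 is known to read. Each is 50 bases long, 5′ to 3′ in the direction of the gene, with the match in capitals, which read TTTC, 2 bases and TTTC where the match is on the other strand:
Gbp3 (chr3:142559985-142560034, plus strand): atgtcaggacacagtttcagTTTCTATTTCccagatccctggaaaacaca
Oas3 (chr5:120777705-120777754, minus strand): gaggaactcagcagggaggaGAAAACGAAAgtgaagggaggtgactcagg
Isg15 (chr4:156200855-156200904, minus strand): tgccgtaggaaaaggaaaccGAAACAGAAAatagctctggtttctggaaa
Trim30a (chr7:104465200-104465249, minus strand): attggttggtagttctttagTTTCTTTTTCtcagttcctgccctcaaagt
Ifi203 (chr1:173942498-173942547, minus strand): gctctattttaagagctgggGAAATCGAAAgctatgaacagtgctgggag
Apol9b (chr15:77729021-77729070, plus strand): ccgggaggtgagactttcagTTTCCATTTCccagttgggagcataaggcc
Ifit3b (chr19:34607783-34607832, plus strand): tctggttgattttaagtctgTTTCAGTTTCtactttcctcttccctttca
The match shown is the one closest to the start whose flanks all lie before it. In the stretches of Gbp3, Isg15 and Apol9b, bases in lower case before the capitals also belong to further matches. Over the windows at hand, which can overlap, Gbp3, Trim30a and Ifit3b held 2 matches each, Isg15 3, Apol9b 4 and Oas3 and Ifi203 1 each, with a match in Trim30a that begins at position 2 after the start. The match shown begins 39 bases before the start in Gbp3, 75 in Oas3, 66 in Isg15, 36 in Trim30a, 35 in Ifi203, 31 in Apol9b and 154 in Ifit3b.

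Over all genes that were higher with IFN-β, 123 of 196 had a window in the table and 53 of these, 43.1%, held this core. The share was 3.99% over all 27025 genes with a window and 3.70% over the 12276 tested genes with one. Among genes that rose over 8-fold 20 of 31 held it (64.5%), and among those that rose between 2-fold and 4-fold 13 of 60 did (21.7%). The letters TTCNNNGAA, the core of the gamma-activated site, were in windows of 19 of the 123 genes (15.4%), in 9.55% of all genes with a window and in 8.61% of the tested genes with one. Among genes that rose over 8-fold they were in 3 of 31 (9.68%), and among those that rose between 2-fold and 4-fold in 8 of 60 (13.3%). These shares are a description: a match is not a measured binding site, and many members were not in the table.

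Among the signalling genes, the receptor chains and kinases showed no called change and the downstream factors rose. The 9 genes of the receptor and JAK kinase list were well above background on all arrays, none was called, and their median log2 change was -0.03. Ifnar1 measured 2103 and 1733 units on the control arrays and 1859, 2067 and 1952 units on the IFN-β arrays, with the groups overlapping and a 95% interval of the log2 change of -0.21 to 0.28. For Ifnar2 that interval was -0.14 to 0.21, and for Ifnlr1, the specific chain of the type III receptor, it was -0.49 to 0.12, so that 2-fold changes of these receptor genes lie outside the intervals. Tyk2 stood at 343 and 425 units in control cells and at 374, 338 and 303 units after IFN-β.

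Of 14 STAT and IRF transcription factors, 6 were higher, against 190 of 20508 genes tested (0.926%) when each gene is represented by its brightest probe. Parts of ISGF3 were among them. Stat2 rose 3.32-fold from 2517 and 2019 to 6879.7, 8318 and 7309 units (log2 change 1.73 ± 0.12 SE, adjusted p = 0.000381), and Irf9 rose 3.82-fold from 5918 and 5526 to 20985, 22429 and 22098 units (log2 change 1.93 ± 0.07 SE, adjusted p = 1.08e-05). Irf7, which drives the interferon alpha genes, rose most of the list, 14.4-fold, from 479 and 503 units to 7078, 7247 and 6904 units (log2 change 3.85 ± 0.11 SE, adjusted p = 4.51e-06). Batf2 had 1 control array well above background, with 17.3 and 15 units on the control arrays and 163, 158 and 161 units after IFN-β, and Nlrc5, the transactivator of MHC class I genes, rose 3.24-fold (log2 change 1.70 ± 0.12 SE, adjusted p = 0.000358). Irf1 was higher on every IFN-β array but rose less than 2-fold, from 10848 and 10003 to 18022, 19777 and 18973 units (log2 change 0.86 ± 0.08 SE, adjusted p = 0.00166). Irf3, which starts interferon production, measured 15005 and 13763 units on the control arrays and 13119.9, 15295 and 15504 units on the IFN-β arrays, and the log2 changes of Stat3, Irf2 and Irf8, none of them called, lay between -0.10 and 0.29. Irf5 was higher on every IFN-β array, at 359, 214 and 254 against 165 and 151 units, and was not called. The same order was shown by 14.6% of all probes tested.

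Negative feedback was represented by 2 of 9 regulators. Usp18, which removes ISG15 from proteins and binds IFNAR2 to dampen signalling, measured 4360.0 and 3247 units on the control arrays and 42165, 46754 and 44710.2 units on the IFN-β arrays and rose 11.8-fold (log2 change 3.56 ± 0.13 SE, adjusted p = 9.59e-06). Socs1, an inhibitor of JAK kinases, rose 2.85-fold from 989.6 and 829 to 2295, 2774 and 2693 units (log2 change 1.51 ± 0.11 SE, adjusted p = 0.000462). Socs3, induced mainly through STAT3 in many cells, measured 6665 and 6492 units on the control arrays and 5362, 5733 and 5651 units on the IFN-β arrays, all IFN-β arrays lying below the control arrays, without a call (log2 change -0.24 ± 0.08 SE, adjusted p = 0.315); 11.6% of all probes tested had every IFN-β array below both control arrays. The phosphatases Ptpn2, Ptpn6 and Ptpn11, together with Socs2, Cish and Pias1, were not called either.

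Most listed genes of direct antiviral effectors were higher. In the list of the OAS pathway 7 of 9 genes were higher, with a median log2 change of 2.51. The median gene was Oas1g, at 15 units on both control arrays and at 80.9, 83.4 and 92.3 units after IFN-β, at least 5.17-fold higher, a bound computed against the lowest signal that each control array measured well above background. Oas1a rose 10.3-fold from 6786 and 6869 units to 71149, 67604 and 71823 units (log2 change 3.36 ± 0.07 SE, adjusted p = 3.24e-06), and Oas3 measured 40.8 and 63.2 units on the control arrays and 1339.7, 1079.8 and 1066 units on the IFN-β arrays and rose 22.8-fold. The probes of Oas1b disagreed: 1 was not called, with 19936 and 17855 units on the control arrays and 22049.8, 25809 and 25329.5 units on the IFN-β arrays, whereas another rose 4.34-fold from 332 and 351 to 1666, 1397 and 1403 units. The Oas1 genes are near-identical copies, and their probes may share transcripts.

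The IFIT proteins, which bind viral RNA that lacks host cap marks, were higher in 5 of 6 genes, with a median log2 change of 2.95. Ifit3 measured 2361 and 2276 units on the control arrays and 30738, 33026 and 30635 units on the IFN-β arrays and rose 13.6-fold (log2 change 3.76 ± 0.08 SE, adjusted p = 3.24e-06), and Ifit1 rose 9.92-fold to 5243, 4939 and 4622 units. Of 12 antiviral effectors 9 were higher, with a median of 2.08. The myxovirus resistance GTPases Mx1 and Mx2 rose 15.1-fold and 18.5-fold, Mx2 from 331 and 239 to 4958, 5339 and 5360.0 units and Mx1 from 56.5 and 39.9 to 655, 772 and 732 units. Rsad2, or viperin, rose 10.97-fold and the neighbouring nucleotide kinase gene Cmpk2 11.004-fold. Bst2, which tethers budding virus to the cell surface, was bright already in control cells and rose 4.27-fold, from 39975 and 36098 to 154276, 164616 and 168585 units (log2 change 2.10 ± 0.08 SE, adjusted p = 1.61e-05). The kinase Eif2ak2 and the RNA editing enzyme Adar rose 4.21-fold and 4.25-fold. Samhd1 rose 1.71-fold and passed the test without reaching 2-fold (log2 change 0.77 ± 0.07 SE, adjusted p = 0.00205), and Apobec3 was not called, at 2014 and 2365 units in control and 2694, 2312 and 2629.7 units in stimulated cells. Of 4 IFITM genes tested only Ifitm3, a membrane protein that hinders fusion of virus with endosomes, was called: it rose 7.39-fold from 2874 and 2337 to 17351, 19663 and 20614 units (log2 change 2.89 ± 0.12 SE, adjusted p = 2.09e-05), while Ifitm2 measured 1391 and 1313 units on the control arrays and 1516, 1417 and 1539.7 units on the IFN-β arrays.

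The GTPases that act on the vacuoles of intracellular pathogens were also higher in most members. All 10 immunity-related GTPases were higher, between 3.69-fold for Gm12250 and 14.7-fold for Gm4951, with a median log2 change of 2.89. Irgm2, a regulator of the family, measured 1274 and 1159.9 units on the control arrays and 9665, 9786 and 9709 units on the IFN-β arrays and rose 7.995-fold (log2 change 3.00 ± 0.07 SE, adjusted p = 3.24e-06). Tgtp1 was at 15 units on both control arrays and at 147, 132 and 128 units after IFN-β, at least 8.2-fold higher by the same bound. Its neighbour Tgtp2 rose 10.97-fold to 24595, 27121 and 26847 units. Of 11 guanylate-binding proteins 7 were higher, with a median of 2.37. Gbp2 rose 10.1-fold from 398 and 356 to 4418, 3639.9 and 3457 units and Gbp6 14.2-fold, whereas Gbp5 measured 21.96 and 23.5 units on the control arrays and 44.1, 23.5 and 39.2 units on the IFN-β arrays and was not called. Gbp2b spread widely on the IFN-β arrays, with 52.5, 260.3 and 15 units, and was not called.

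Genes of ubiquitin-like modification and of nucleic acid sensing come next. All 6 genes of the ISG15 list were higher. Isg15, the ubiquitin-like modifier itself, had 2 probes, which rose 12.8-fold to 135247, 141163 and 128193 units and 15.8-fold to 11038, 10974 and 10448 units. Its activating enzyme Uba7 rose 5.05-fold, its conjugating enzyme Ube2l6 3.66-fold and the ligase Herc6 2.95-fold. Of 19 nucleic acid sensors and adaptors 7 were higher, and these were all sensors. Dhx58, the LGP2 helicase, rose 19.7-fold from 140.0 and 104 to 2400.2, 2338 and 2389 units (log2 change 4.30 ± 0.13 SE, adjusted p = 4.85e-06). Ddx58, which encodes RIG-I, rose 6.72-fold to 14966, 17962 and 16268 units, and Ifih1, which encodes MDA5, 5.01-fold to 5376, 6511 and 6319 units. The adaptor Mavs measured 2582 and 2529 units on the control arrays and 2442, 2725 and 2825 units on the IFN-β arrays and was not called. Cgas, a sensor of DNA, was higher on every IFN-β array, as were 14.6% of all probes tested. It missed the threshold (log2 change 0.53 ± 0.10 SE, adjusted p = 0.0548). Among Toll-like receptors, Tlr3, a sensor of double-stranded RNA, was called, rising 2.27-fold from 164 and 141 to 330.1, 345 and 362 units (log2 change 1.18 ± 0.19 SE, adjusted p = 0.0324), whereas Tlr4, Tlr5, Tlr7 and Tlr9 were not.

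Of 11 TRIM genes 8 were higher at 2-fold and 10 passed the test at any size, with a median of 2.23. Trim30a rose 15.5-fold, from 78.5 and 52.3 to 880.1, 1022 and 1090.2 units, and its neighbour Trim30d 13.7-fold. Trim25, a ligase that acts on RIG-I, rose 2.55-fold from 23234 and 20987 to 55528, 58013 and 55367 units. Of 7 genes of the PARP list 5 were higher. Parp14 rose 10.9-fold to 17812, 20706 and 19477 units (log2 change 3.45 ± 0.17 SE, adjusted p = 4.1e-05), and Parp9 and its partner Dtx3l rose 6.22-fold and 5.35-fold. Parp1, which acts in DNA repair, was not called, with 3241 and 3781 units on the control arrays and 3445, 3197 and 3078 units on the IFN-β arrays.

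Antigen presentation through MHC class I changed in more genes than the 2-fold threshold shows. Of 18 genes of the pathway 4 were higher at 2-fold, H2-T22, Tap1, Tapbp and Nlrc5, and 10 passed the test at any size (background at any size 1.51% of probes), with a median log2 change of 0.79. Tap1, which pumps peptides into the endoplasmic reticulum, rose 3.11-fold from 442 and 538 to 1829, 1402 and 1363 units (log2 change 1.64 ± 0.17 SE, adjusted p = 0.00359). B2m, the light chain, rose 1.92-fold from 12122 and 10746 to 23718, 20308 and 21915 units (log2 change 0.94 ± 0.10 SE, adjusted p = 0.00438), and the classical heavy chain H2-K1 1.58-fold to 83998, 83962 and 85989.9 units (log2 change 0.66 ± 0.08 SE, adjusted p = 0.0064). H2-D1 was higher on each IFN-β array, as were 14.6% of all probes tested. It missed the threshold (log2 change 0.72 ± 0.15 SE, adjusted p = 0.0774). The chaperones Calr, Canx and Pdia3, which serve all glycoproteins, were not called, with log2 changes of -0.21, 0.02 and -0.31. The class I heavy chains are close copies of one another, so that their probes may not be specific.

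In the proteasome, all 3 catalytic subunits of the immunoproteasome rose with IFN-β: Psmb8 3.42-fold, from 2238 and 2276 to 8142, 7447 and 7558 units (log2 change 1.77 ± 0.09 SE, adjusted p = 4.91e-05), Psmb9 3.61-fold and Psmb10 3.15-fold. The activator subunits Psme1 and Psme2 passed the test below 2-fold, at 1.57-fold and 1.59-fold. None of 8 genes of the constitutive proteasome and its Psme3 activator was called, and their median log2 change was 0.12, with Psmb6 at 121435 and 119786 units in control and 114403, 142498 and 147023 units in stimulated cells. No gene of the MHC class II pathway was called among 5 tested. The invariant chain Cd74 measured 151 and 136 units on the control arrays and 182, 169.9 and 172 units on the IFN-β arrays (log2 change 0.28 ± 0.09 SE, adjusted p = 0.274), and the class II transactivator Ciita overlapped between the groups. H2-Aa and H2-Ab1 did not pass the filter on dim probes.

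Secreted signals moved in few genes. Cxcl10, a chemokine for T cells and natural killer cells, was the only one of 14 listed chemokines called, and rose 4.93-fold from 15492 and 12609 to 64306, 68747 and 74034 units (log2 change 2.30 ± 0.12 SE, adjusted p = 7.32e-05). Cxcl11, which binds the same receptor, overlapped between the groups, with 143794 and 135587 units on the control arrays and 150213, 139449 and 133451 units on the IFN-β arrays. Ccl2, Ccl5 and Ccl7 were higher on every IFN-β array without passing the test (adjusted p = 0.0901, 0.399 and 0.084). Of all probes tested 14.6% had every IFN-β array above both control arrays. Ccl8, a chemokine that is not in the list, was called higher from signals not well above background in control cells, at 15 units on both control arrays and 45.6, 27.6 and 37.8 units on the IFN-β arrays, at least 2.19-fold (adjusted p = 0.0356), a call kept in 1 of the 8 fits without a single array. Of 11 cytokines and ligands 2 were higher: Lgals9, which encodes galectin-9, rose 7.12-fold to 4813, 4331 and 4344 units (log2 change 2.83 ± 0.08 SE, adjusted p = 4.94e-06), and Cd274, the checkpoint ligand PD-L1, rose 2.02-fold from 196 and 199 to 393, 401 and 403 units (log2 change 1.02 ± 0.06 SE, adjusted p = 0.000125). Il7 was not called: 1 IFN-β array stood apart from the rest, at 48.9, 331 and 67.4 units. None of 7 interferon genes tested was called. Ifnb1 itself stood at 35.3 and 30.98 units in control and 47.5, 46.9 and 77.2 units in stimulated cells (log2 change 0.75 ± 0.27 SE, adjusted p = 0.326).

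Cell death genes rose in 3 of 12. Tnfsf10, the death ligand TRAIL, measured 38.8 and 26.03 units on the control arrays and 233, 325 and 285 units on the IFN-β arrays and rose 8.77-fold (log2 change 3.13 ± 0.23 SE, adjusted p = 0.000391). Xaf1, an antagonist of the apoptosis inhibitor XIAP, rose 10.02-fold to 13176, 12289 and 11472 units, and Daxx rose 2.07-fold. Mlkl, the executor of necroptosis, was higher on each IFN-β array, at 3601, 5551 and 5483 against 2476 and 1856 units. The same order was shown by 14.6% of all probes tested. Mlkl missed the threshold (log2 change 1.16 ± 0.21 SE, adjusted p = 0.0522). Of 4 Schlafen genes tested Slfn2 was called, rising 8.8-fold. Slfn8 was not, its control arrays lying far apart at 25.6 and 188 units. Among 8 genes of the Sp100 and Phf11 list 5 were higher, Phf11a and Phf11d each by 11.1-fold. The probes of Sp110, Pml and Trim14 disagreed as those of Oas1b did: the probe of Sp110 used for the list was not called, at 1.21-fold, and another rose 3.94-fold, from 139.8 and 136 to 524, 562 and 545 units. For Pml the values were 1.82-fold, below the threshold of 2-fold, and 2.02-fold, and for Trim14 5.48-fold and, not called, 1.16-fold.

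Over all 23 interferon lists 228 genes were tested, 102 were higher, none was lower and the median log2 change was 0.86. Over all genes tested 0.926% were higher, 0.0293% were lower and the median was 0.02. Of the 196 higher gene names 105 belong to these lists and 91 to none. The lists were written with results of these data known, so their counts are a description.

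**Figure D3:**
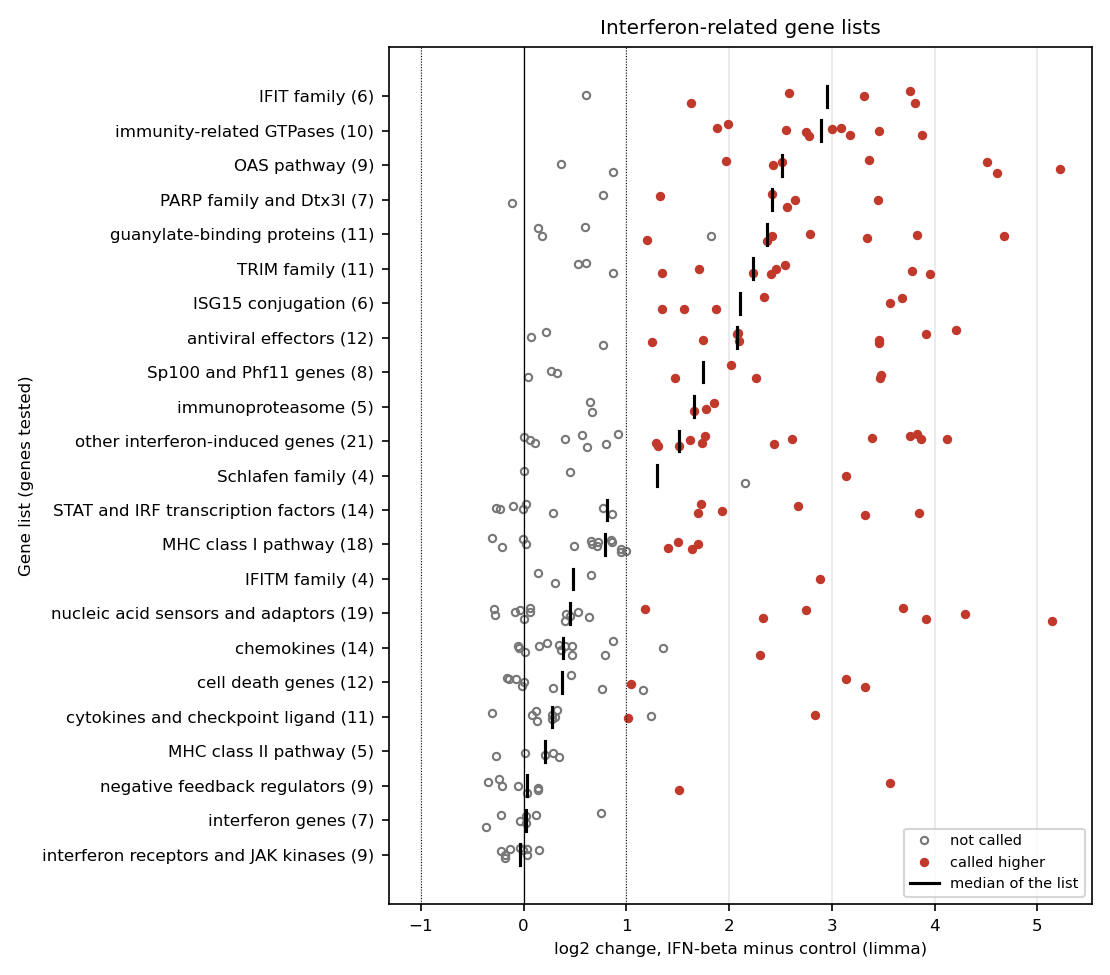
log2 change (x axis, IFN-β minus control) of each tested gene in the 23 interferon-related lists (y axis, number of genes tested in parentheses); filled points were called higher, open points were not called, ticks are list medians and dotted lines mark 2-fold. The IFIT, immunity-related GTPase and OAS lists lie far to the right, while the receptors and kinases sit around 0.

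No gene of the epithelial and cell state lists reached the 2-fold call. In 12 lists of epithelial identity, brush border, secretory lineages, stem cells, junctions, proliferation, cholesterol synthesis, unfolded protein response, hypoxia and NF-κB, 148 genes were tested and the median log2 change was 0.00. Without control replicate 3, Cdx1 and Gata4 were called lower (log2 change -2.60 and -1.47). For Gata4 control replicate 2 measured 41.5 units and every other array of the comparison 15 units. Krt20 was higher on every IFN-β array, as were 14.6% of all probes tested. It was not called (log2 change 0.23 ± 0.10 SE, adjusted p = 0.413). Cldn3, a tight junction protein, measured 46798 and 38206 units on the control arrays and 30022, 33054 and 35895 units on the IFN-β arrays. All its IFN-β arrays lay below the control arrays, as did those of 11.6% of all probes tested. It was not called (log2 change -0.36 ± 0.11 SE, adjusted p = 0.255). Hnf4a, a regulator of enterocyte genes, measured 169 and 129.7 units on the control arrays and 116, 126 and 118 units on the IFN-β arrays and was not called (adjusted p = 0.519).

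The only listed gene of these 12 that passed the test at any size was Egln3, an oxygen-sensing hydroxylase, which fell by less than 2-fold from 1684 and 1767 to 1346, 1230.1 and 1303 units (log2 change -0.42 ± 0.07 SE, adjusted p = 0.0392). The unfolded protein response list had the lowest median, -0.18 over 12 genes. Its chaperones Sdf2l1 (log2 change -0.77, adjusted p = 0.146) and Hsp90b1 (-0.52, 0.153) were lower on every IFN-β array, as 11.6% of all probes tested were, without passing the test. Top2a, a proliferation gene, measured 5483 and 6942 units on the control arrays and 4386, 4646 and 4399 units on the IFN-β arrays (log2 change -0.46 ± 0.11 SE, adjusted p = 0.128), and the cyclin Ccnd1 3539 and 4038 units on the control arrays and 5000.4, 5172 and 5092 units on the IFN-β arrays (log2 change 0.43 ± 0.08 SE, adjusted p = 0.0514). Among 10 housekeeping genes none was called, with log2 changes between -0.29 and 0.28. The 95% interval of the log2 change was -0.31 to 0.52 for Epcam, -0.07 to 0.32 for Krt18 and -0.06 to 0.41 for Actb.

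**Figure D4:**
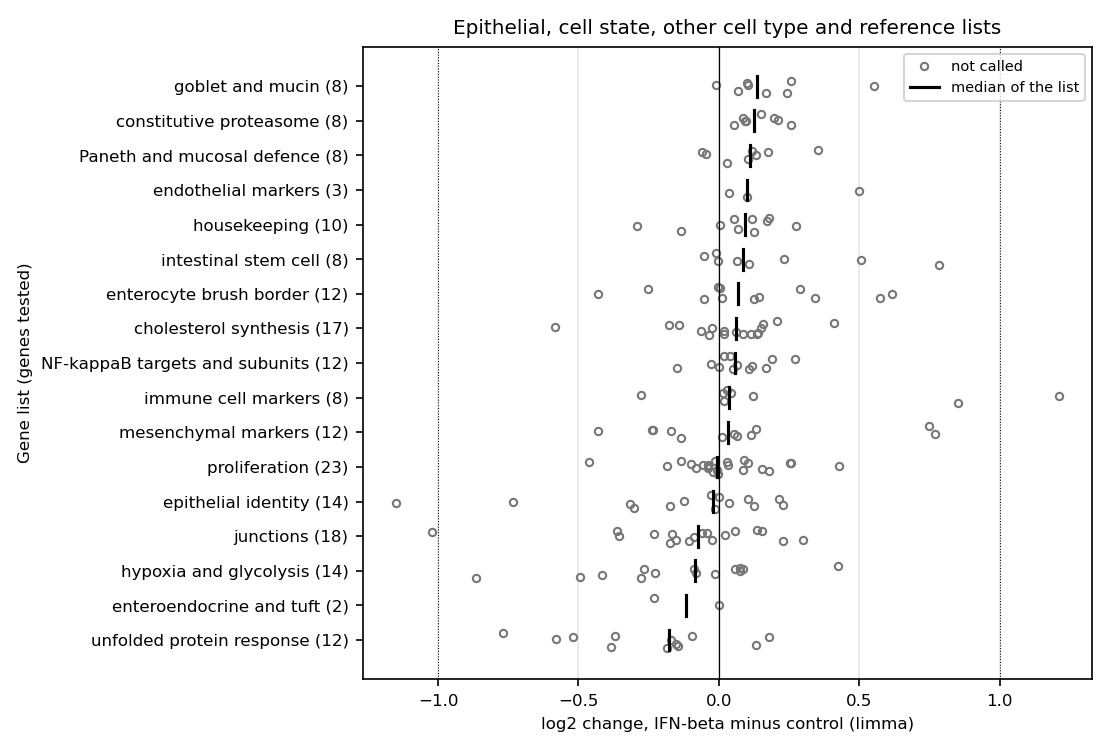
log2 change (x axis, IFN-β minus control) of each tested gene in the epithelial, cell state, other cell type and reference lists (y axis, number of genes tested in parentheses); open points are genes, none of them called, ticks list medians, and dotted lines mark 2-fold. The medians lie between -0.18 and 0.14.

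The 7 lower probes all gave low signals. Pilra, an inhibitory receptor, was at 57.04 and 48.04 units in control cells and at 15 units on all IFN-β arrays, none of which was well above background, so that its fall was at least 2.66-fold (adjusted p = 3.51e-05). A second probe of Pilra went the other way, with a log2 change of 0.996 that was not called. A930037H05Rik measured 85.8 and 69.8 units on the control arrays and 34.3, 24.2 and 31.6 units on the IFN-β arrays and fell by 2.6-fold (log2 change -1.38 ± 0.17 SE, adjusted p = 0.00948). The others were Gm4856, 6030443J06Rik, Rax, Nemp2 and Fam174b, of which Fam174b fell 2.02-fold (139 and 147 against 79.96, 60.01 and 73.9 units). Gm4856 had 1 IFN-β array well above background and fell at least 3.6-fold (52.7 and 100.2 against 22.7, 15 and 15 units). The number of lower probes was 70 without control replicate 2 and 75 without control replicate 3, 2 without IFN-β replicate 2 and 4 without IFN-λ2 replicate 1. Pilra alone was called whichever single array was left out, and Pilra and A930037H05Rik alone with the replicate number as a block.

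The response to IFN-β was then set against that to IFN-λ2 in a direct contrast of the 3 arrays each, over the 232 probes higher with IFN-β. By the same 2-fold rule IFN-λ2 gave the higher level for 28 of them, IFN-β for 7, and 197 were not called either way. Over all probes tested 1.46% were called toward IFN-λ2 and 0.707% toward IFN-β. For 174 of the 232 the whole 95% interval of the difference lay within 2-fold. The counts and intervals of this contrast come from the fit without the replicate number as a block. With that block all 28 kept their call against IFN-β, and 26 of them were then also called higher than control. Beside the control arrays, which both contrasts share, 219 of the 232 were also higher with IFN-λ2, as were 2.74% of all probes tested.

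Among the 232 probes the difference toward IFN-λ2 was largest for Csprs, a gene of the Sp100 and Phf11 list. It measured 103, 96.4 and 113 units with IFN-β and 1424, 1784 and 1407 units with IFN-λ2, a difference of 3.88 ± 0.14 SE on the log2 scale (adjusted p = 0.00011). Of the other probes of Csprs, 2 disagree with it on the change from control to IFN-β, for which they were not called. Between the interferons both went the same way as the probe above, toward IFN-λ2, but by less than 2-fold. Their differences were 0.99 ± 0.13 SE (adjusted p = 0.00512) and 0.61 ± 0.10 SE (adjusted p = 0.0118). The former probe stood at 15 units on every control and IFN-β array. Slfn2 measured 983, 803 and 797 units with IFN-β and 2818, 2955 and 2472 units with IFN-λ2 (difference 1.68 ± 0.11 SE, adjusted p = 0.000375). Tnfsf10 was at 233, 325 and 285 units with IFN-β and at 1047, 882 and 742 units with IFN-λ2 (difference 1.66 ± 0.20 SE, adjusted p = 0.00345). Of the 8 Sp100 and Phf11 genes tested 6 were called toward IFN-λ2, among them Sp140, which was not called against control with IFN-β. Oas2, with the largest rise after IFN-β, was a further 2.63-fold higher with IFN-λ2 (adjusted p = 0.00119).

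Other strongly induced genes reached like levels with both. Zbp1 stood at 3631, 3776 and 3607 units with IFN-λ2, and the 95% interval of its difference was -0.20 to 0.46 on the log2 scale. For Irf7 that interval was -0.40 to 0.06, for Usp18 -0.05 to 0.49 and for the brighter Isg15 probe -0.17 to 0.34, all within 2-fold. Hnf4a, which was not called between IFN-β and control, stood at 116, 126 and 118 units with IFN-β and at 28.8, 21.3 and 23.8 units with IFN-λ2, and the groups did not overlap (IFN-λ2 minus IFN-β -2.30 ± 0.14 SE, adjusted p = 0.000265).

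Of the 7 probes for which IFN-β gave the higher level, 6 gave low signals. ENSMUST00000080361, a transcript without a gene symbol here, measured 126, 187 and 156 units with IFN-β, 29.3, 42.04 and 35.7 units with IFN-λ2 and 15 and 24.3 units in control cells (IFN-λ2 minus IFN-β -2.13 ± 0.23 SE, adjusted p = 0.00223). Angpt1, a ligand of the endothelial receptor Tie2, measured 49.95, 66.7 and 59.9 units with IFN-β and 31.4, 16.9 and 25.8 units with IFN-λ2 (difference -1.29 ± 0.23 SE, adjusted p = 0.0132). Iapp, Ccl8, Gm11563 and ENSMUST00000092394 showed the same direction, for example 80.03, 60.4 and 60.2 against 15.9, 15 and 20.97 units for ENSMUST00000092394. Plekha4, chosen after its values were seen, was the exception, at 952, 1013 and 961 units with IFN-β, 446, 503 and 493 units with IFN-λ2 and 486 and 446 units in control cells (difference -1.02 ± 0.08 SE, adjusted p = 0.000525). The calls of Iapp, Ccl8, Angpt1, Gm11563 and ENSMUST00000092394 against control were lost without several of the single arrays, each being called in at most 2 of 8 such fits. The count of 7 became 2 without either control array or without IFN-λ2 replicate 1, 3 without IFN-λ2 replicate 2 and 4 without IFN-β replicate 3. With the replicate number as a block all 7 kept their call against IFN-λ2, but only 2, ENSMUST00000080361 and Plekha4, were then also called higher than control.

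**Figure D5:**
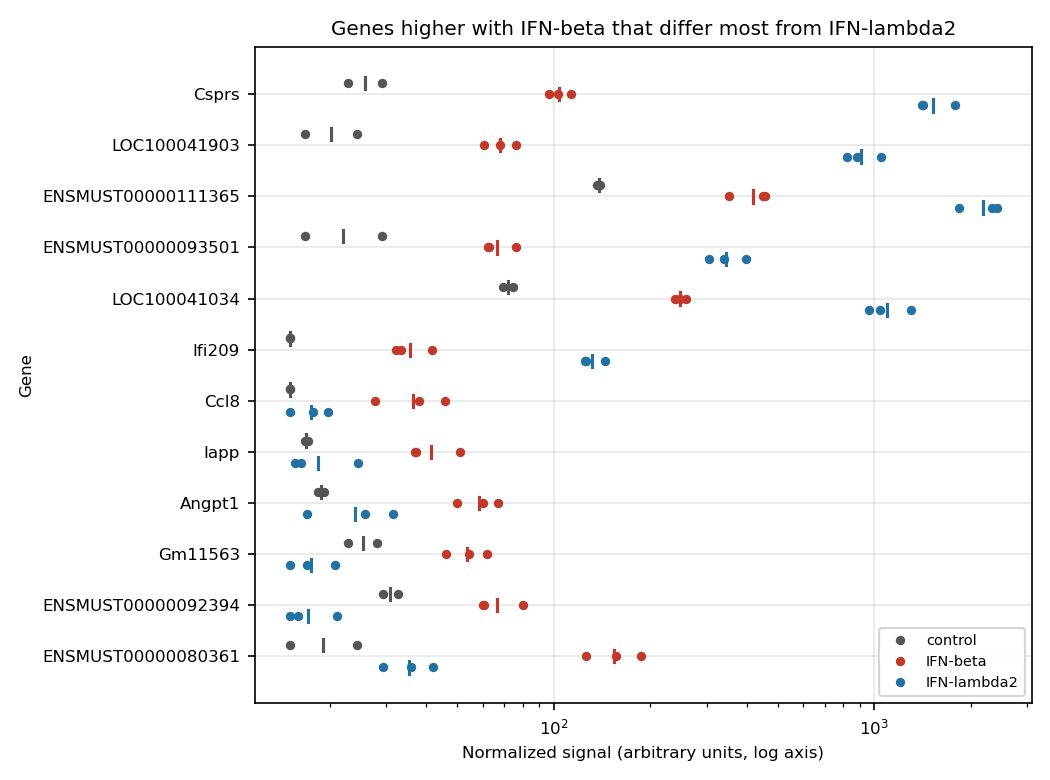
Normalized signal (x axis, arbitrary units, log axis) of the genes higher with IFN-β that differ most from IFN-λ2, 6 in each direction, on the 2 control, 3 IFN-β and 3 IFN-λ2 arrays; each point is an array and each tick a group's geometric mean. In the upper 6 rows the IFN-λ2 arrays lie to the right of the IFN-β arrays, in the lower 6 rows to the left, the highest IFN-β array of those standing at 187 units.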

How the data were processed

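RNA of 8 samples was hybridized with Cy3 to 1-color Agilent whole mouse genome arrays. The sample labels name Trizol for its isolation and the methods the RNeasy Mini Kit. The authors extracted features with Agilent Feature Extraction 10.7.3.1, per the submitters' processing notes, and deposited a table of intensity values on a linear scale. Set against the scanner files, every single-feature probe above 15 units was the background-subtracted processed signal times 1 factor per array (0.628 to 0.712), to within 0.1%. Per the methods that factor brings the 75th percentile to 1500, and values under 15 are set to 15; over the non-control probes the deposited 75th percentile was 1363 to 1389.7 units. Control replicate 1 is not analysed.

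The deposited intensity values were converted to log2 here. Probes above 15 units on at least 2 arrays were kept, 25614 of 39429, and limma 3.58.1 (R 4.3.3) fitted a mean per group to all 8 arrays; p-values were adjusted by Benjamini-Hochberg. Names follow accession, symbol or synonym in RefSeq's gene table of GRCm38.p6 (26412, 3854 and 735 probes, 20 by a further accession), and 8408 probes kept the array's name. In the lists a gene with several probes is given by the brightest, while rises and falls are ranked by probe and a gene name counts as higher by any probe. Genes are named if among the 20 largest rises or 10 largest falls, the 8 largest bounds, the 4 largest changes of a list (or, for receptors, STAT and IRF factors, feedback, epithelial identity and housekeeping, as a member), the 6 largest differences from IFN-λ2 in each direction, or if their probes disagree; list members beyond these were chosen after their values were seen, to show how the list divides. The members and lists were chosen with earlier results of these data known. The fit was tested on simulated data. Python 3.11.15 with pandas 2.3.3, numpy 2.4.6 and matplotlib 3.10.9 served for tables and figures.

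Alternatives were scanner values, normexp, quantile normalization, other floors and filters, the replicate block, leaving out arrays, fitting 5 arrays, a trended prior, the methods' t-test and other thresholds. Deviations from the group means of IFN-β and control arrays of 1 number correlated at 0.103 (replicate 2) and -0.0652 (replicate 3), so the numbers are not shown to pair these groups. Those of IFN-β and IFN-λ2 correlated at 0.187, 0.277 and 0.317 (replicates 1, 2 and 3). There the numbers, which are also those of the slides, may therefore pair the arrays. Arrays of different numbers were not correlated with each other. The number of arrays limits the precision of every value. Some members of the lists are counted but not reported by name here.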

Additional observations from a re-analysis of the deposited data

How the results depend on the processing

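The number of higher probes, 232, stayed within 1.5 times under the alternatives of values, background, normalization, floor, filter, block and prior (189 to 239), and between 219 and 227 when 1 array was left out. It was 348 and 386 at 1.5-fold and with no fold threshold, where the lower probes were 24 and 54. The methods' t-test gave 157 higher and 3 lower probes at its unadjusted p, and 76 and 2 after Benjamini-Hochberg adjustment. With the replicate block 216 were higher, 211 of them among the 232, and 5 lower, 2 of them among the 7. The number of lower probes, 7, depended on the setting: it was 1 with normexp, 2 with a floor of 50 units, 1 without a filter and 3 with the 5 arrays of IFN-β and control, of which 0, 2, 1 and 1 were among the 7. Leaving out 1 array gave 2 to 75 lower probes, 2 to 5 of them among the 7, with 70 without control replicate 2 and 75 without control replicate 3, when 1 control array is assumed to vary like the other groups; 1328 probes were lower at an unadjusted p under 0.05. Probes called toward IFN-λ2, 28 of those higher, numbered 16 with normexp, 19 with a floor of 50 units and 13 and 7 by the methods' t-test (unadjusted and adjusted), and 25 to 30 without single arrays. Probes called toward IFN-β, 7 of those higher, numbered 1 with normexp, 2 with a floor of 50 units, without a filter and with the replicate block, 1 and 0 by the t-test, and 2 to 8 without single arrays; the fit of 5 arrays holds no IFN-λ2. The interferon lists gave 98 to 105 higher genes under the other settings with limma, and 83 and, after adjustment, 44 by the t-test. The other lists gave 0 called genes except 1 without IFN-β replicate 2 (Ptprc) and 2 without control replicate 3 (Cdx1 and Gata4). No called gene among those named reversed under another processing or without an array, but other probes of Ifi209 and Pilra went the other way (log2 change -0.11 and 0.996). The cause of these shifts was not tested. Probes near 15 units limit what can be said of dim genes.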

Other observations

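Of the 196 gene names higher with IFN-β, 91 stand in none of the lists, and the genes named in this paragraph were chosen after their values were seen. Among them were the complement genes Cfb and C2. Cfb, factor B of the alternative pathway, measured 15 and 27.2 units on the control arrays and 145, 123 and 127 units on the IFN-β arrays, and C2 measured 19.6 and 21.4 units on the control arrays and 61.3, 59.6 and 69.9 units on the IFN-β arrays, a rise of 3.1-fold (adjusted p = 0.000845). Trex1, a DNA exonuclease, rose 2.88-fold to 11319, 13175 and 12272 units, Helz2 4.01-fold to 16531, 16967 and 15186 units, Znfx1 2.35-fold to 33261, 37011 and 36378 units and Mov10 2.3-fold to 7962, 9806 and 9102 units. Serpinb9, an inhibitor of granzyme B, rose 2.54-fold from 1453 and 1336 to 3483, 3747 and 3415 units (log2 change 1.35 ± 0.12 SE, adjusted p = 0.00119). Lmo2, a cofactor of blood and endothelial transcription factors, was at 15.2 and 15 units in control cells, not well above background, and at 85.7, 122 and 92.97 units after IFN-β, at least 5.99-fold higher. Dll1, a Notch ligand, rose 2.22-fold from 448 and 338 to 906, 855 and 837 units (log2 change 1.15 ± 0.14 SE, adjusted p = 0.00651).

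Many of the higher genes were neighbours. By the mm9 positions of their probes, 121 of 194 higher names (62.4%) lay within 500 kb of another, while 2009 of 20200 other tested names (9.95%) lay that close to a higher one. Runs of at least 3 such genes numbered 17 and held 83 genes. The run with the most genes, at chr1:175398723-175956690, held 13 higher genes of 20 tested, among them Ifi203, Ifi204, Ifi207, Ifi211 and Mndal of the family of interferon-inducible DNA-binding proteins, with rises from 2.20-fold to 15.04-fold. At chr5:121180343-121348397, the Oas locus, 8 of 10 tested genes were higher, and at chr7:111410513-111620864, which holds Trim30a, Trim12a and Trim34a, all 7 tested were. These families are close copies of one another, and whether their probes read 1 transcript or several was not tested.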
